A study of Bos taurus with 46 samples.

Results

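The cluster of miR-191 and miR-425 was followed in the plasma of heifers as 3 mature miRNAs, bta-miR-191, bta-miR-425-5p and bta-miR-425-3p, the prefix bta standing for Bos taurus,, taken by name from 870 miRNA names in the sequencing data. Of these 870 names, 214 passed a filter on low values, and all 3 cluster members were among them. The heifers were cycling Holstein-Friesians, 14 to 17 months old, which were all oestrus-synchronised with a progesterone insert, buserelin and cloprostenol and kept on a single farm. The non-pregnant heifers (NP, n = 8) were sham-inseminated and bled 3 times in the cycle, on Day 0 for NP0, on Day 8 for NP8 and on Day 16 for NP16. The pregnant heifers (n = 11) were inseminated and sampled on Day 16 (P16) and Day 24 (P24) of pregnancy. Small RNA was sequenced from EDTA plasma that had been spun a second time at high speed to remove debris and platelets. The study left out 1 P16 library with a very low total of normalised reads, so 45 of 46 libraries were used here, 10 of them in P16.

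The genes for miR-191 and miR-425 lie next to each other and in mammals are transcribed together. Each hairpin is cut by Drosha and Dicer into a duplex, and usually 1 strand is loaded into an Argonaute protein while the other is degraded. miR-425-5p and miR-425-3p are the opposite strands of 1 hairpin, so they are transcribed together and their ratio compares the reads of the arms. In plasma this ratio does not by itself measure which strand was loaded. In human blood, miR-191 is abundant in platelets and also present in leukocytes and erythrocytes, and it has often been used as a reference miRNA in serum and plasma. In bulk plasma, a change in the cells that release a miRNA and a change in the amount each cell releases cannot be told apart.

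On the UMD 3.1 bovine genome, the deposited locations placed all 3 on the plus strand of chromosome 22. miR-191 lay at 51902750 to 51902772 (23 bases), miR-425-5p at 51903232 to 51903253 (22 bases) and miR-425-3p at 51903272 to 51903293 (22 bases). The end of miR-191 and the start of miR-425-5p were 459 bases apart, the arms of miR-425 were 18 bases apart, and the whole cluster spanned 544 bases. In the RefSeq gene order (ARS-UCD2.0), MIR191 and MIR425 sat between NDUFAF3 and DALRD3, with IMPDH2 and WDR6 as the outer neighbours. DALRD3 is the host gene of both miRNAs in human annotation. RefSeq also lists MIR191B within the interval of MIR191, and the files held 0 further names of miR-191 or miR-425, so reads of the former could not be separated.

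miR-191 was among the most abundant miRNAs of bovine plasma, and its hairpin neighbour was far less so. Levels are given as RPMM, the deposited read count normalised to a fixed total of mapped reads in each library. Over the 45 libraries bta-miR-191 averaged 31946 RPMM, bta-miR-425-5p 1740 RPMM and bta-miR-425-3p 109 RPMM. By mean level over all 46 libraries, the left-out one included, they ranked 4, 48 and 140. The median library held 17.8 reads of miR-191 for each read of miR-425-5p (range 10.6 to 26.6), and 15.6 reads of miR-425-5p for each read of miR-425-3p (range 10.6 to 31.8). The 5p arm thus had more reads than the 3p arm of miR-425 in every library, and the 3p arm is called the minor arm below. Read ratios do not measure molar ratios. Libraries held 651408 to 5440381 miRNA reads, of which 20537 to 405454 were miR-191, 1382 to 16870 were miR-425-5p and 109 to 1043 were miR-425-3p. At the low end, 110 reads of miR-425-3p in NP0 animal 16 gave 44.5 RPMM with a 95% exact Poisson interval of 36.5 to 53.6, which covers counting error only.

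By group, miR-191 averaged 27301 ± 12796 RPMM in NP0 (SD, n = 8), 27912 ± 4616 in NP16 (n = 8), 33204 ± 12218 in P16 (n = 10), 34495 ± 12346 in NP8 (n = 8) and 35260 ± 8526 in P24 (n = 11). The lowest, median and highest libraries were 14067, 25401 and 56953 RPMM in NP0, 15355, 34938 and 50352 in NP8, and 23381, 26264 and 37936 in NP16. They were 21714, 27026 and 54456 RPMM in P16 and 18218, 38246 and 46167 in P24. All 5 ranges overlapped, and each step in this order of means was smaller than the SD of either neighbour, apart from that from NP16 to P16, which exceeded the SD of NP16 and not that of P16. The high NP0 value came from 1 heifer, animal 21 (56953 RPMM), since the next NP0 library held 27302. In P16 the libraries fell into separate sets, 3 heifers (animals 10, 11 and 12) at 45911, 54456 and 51022 RPMM and the other 7 at 21714 to 28290. On Day 24 those same 3 heifers had 44585, 46167 and 35593 RPMM, and the gap between the sets was no longer there.

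miR-425-5p had one of the lowest spreads over all libraries together. Its means were 1612 ± 306 RPMM in NP0, 1679 ± 197 in NP16, 1749 ± 274 in P24, 1792 ± 329 in P16 and 1852 ± 390 in NP8 (SD). The lowest, median and highest libraries were 1194, 1592 and 2141 RPMM in NP0, 1246, 1944 and 2502 in NP8, 1467, 1637 and 2094 in NP16, 1400, 1663 and 2323 in P16, and 1226, 1784 and 2127 in P24. Every range overlapped every other, and each step between neighbouring means was below either SD. The coefficient of variation (CV, the SD as a percentage of the mean) over 45 libraries was 17.3%, the 3rd lowest of the 214 miRNAs tested, whose median CV was 33.03%. Only miR-423-3p (14.1%) and miR-320a (16.7%) were lower on this scale. On counts scaled by TMM, which lines libraries up on their middle miRNAs, the CV of miR-425-5p was 16.5% and ranked 12 (median 29.6%). Within single groups its rank from the lowest CV was 14 in NP0, 42 in NP8, 2 in NP16, 28 in P16 and 4 in P24 on RPMM, and 9, 13, 28, 66 and 22 on TMM-scaled counts. This measure and its rank were chosen after the values had been seen. miR-191 had a CV of 33.1%, close to the median.

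The minor arm, miR-425-3p, averaged 89.5 ± 35.5 RPMM in NP0, 95.2 ± 36.2 in NP16, 115 ± 30.4 in P16, 118 ± 32.8 in P24 and 125 ± 59.0 in NP8 (SD). Its lowest, median and highest libraries were 44.5, 97.3 and 133 RPMM in NP0, 53.2, 126 and 195 in NP8, and 50.1, 92.6 and 157 in NP16. In P16 they were 81.8, 112 and 173 RPMM, and in P24 79.5, 106 and 186. The ranges overlapped in all 5 groups, and neighbouring means differed by less than either SD. Its CV over all libraries was 36.2%, and its highest library held 4.40 times its lowest, against 4.05 times for miR-191 and 2.10 times for miR-425-5p.

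**Figure D1:**
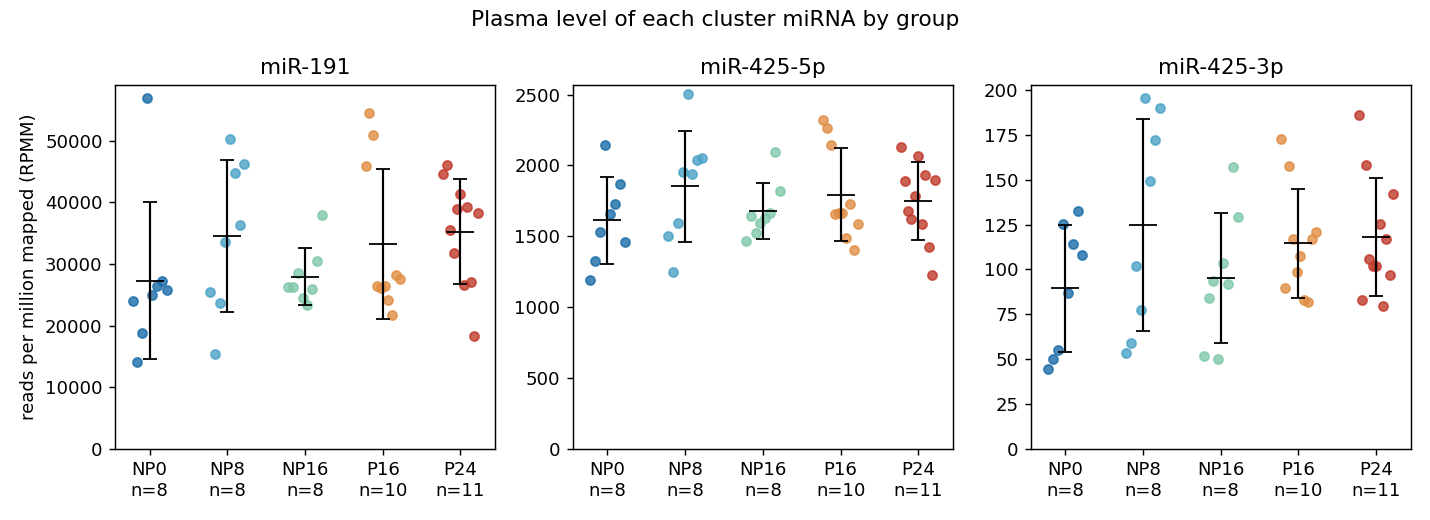
Level of miR-191, miR-425-5p and miR-425-3p in RPMM (linear axes from 0) in each library of NP0, NP8, NP16, P16 and P24; points are libraries, bars the group mean ± SD. The groups overlap for all 3 miRNAs, with 1 NP0 library at 56953 RPMM and 3 P16 libraries above 40000 RPMM of miR-191.

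None of the 3 cluster miRNAs was called as changed by pregnancy. Groups were compared on counts with the quasi-likelihood test of edgeR after TMM scaling, with p-values adjusted over all 214 miRNAs by the Benjamini-Hochberg method and an FDR limit of 0.1. For NP, the counts of the 3 days were summed per heifer (RPMM were averaged). NP heifers had 29902 ± 6806 RPMM of miR-191, 1715 ± 239 of miR-425-5p and 103 ± 37.97 of miR-425-3p (SD, n = 8). In P16 vs NP, 0.935% of the 214 miRNAs were called, 2 in all, and 0 of the 3 cluster members. At an unadjusted p under 0.05 there were 7.01% of the 214, also without a member. The log2 fold change was 0.16 ± 0.17 (SE) for miR-191 (edgeR adjusted p = 0.860), 0.09 ± 0.11 for miR-425-5p (adjusted p = 0.916) and 0.17 ± 0.14 for miR-425-3p (adjusted p = 0.820). As folds with 95% confidence intervals these were 1.11 (0.87 to 1.43), 1.07 (0.908 to 1.25) and 1.13 (0.916 to 1.38). DESeq2 and limma also called 0 of the 3. The value for miR-191 rested on 1 heifer: without P16 animal 11, which had the highest level on both days, its log2 fold change was 0.02. Without the same animal that of miR-425-5p was 0.03, and without NP animal 16, which had the least miR-425-3p, that of miR-425-3p was 0.10.

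In P24 vs NP, 0.0% of the miRNAs were called by edgeR (0 of 214, with 7, or 3.27%, at an unadjusted p under 0.05), and likewise 0 by DESeq2 and limma. miR-191 had a log2 fold change of 0.21 ± 0.13 (SE; edgeR adjusted p = 0.871), which is a fold of 1.15 with a 95% interval of 0.951 to 1.4. miR-425-5p stood at 0.01 ± 0.09 (adjusted p = 0.982; fold 1.01, 0.88 to 1.15), a direction that turned in several alternative analyses. miR-425-3p stood at 0.19 ± 0.17 (adjusted p = 0.935; fold 1.14, 0.893 to 1.45), and at 0.11 without NP animal 16. Both contrasts use the same NP heifers, and the P16 and P24 libraries come from the same pregnant heifers, so these values are not separate evidence of a direction.

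On Day 16 alone, P16 vs NP16 asked whether pregnant and cycling heifers differed at the same day. edgeR called 0.0% of 214 (0 miRNAs, with 15, or 7.01%, at an unadjusted p under 0.05), DESeq2 called 1 and limma 0, with no cluster member among them. The log2 fold changes were 0.14 ± 0.17 for miR-191 (edgeR adjusted p = 0.847), -0.004 ± 0.12 for miR-425-5p (adjusted p = 0.9998) and 0.18 ± 0.16 for miR-425-3p (adjusted p = 0.847). The value for miR-191 was -2.4e-05 without P16 animal 11, and that for miR-425-3p was 0.05 without NP16 animal 16. For miR-425-5p the sign depended on the scaling: the RPMM means differed by a ratio of 1.07, and library totals in place of TMM gave a log2 fold change of 0.16. In this contrast library totals moved the median of all 214 miRNAs by 0.17 on the log2 scale, so relative to that shift miR-425-5p stood close to 0 either way. From Day 16 to Day 24 of pregnancy (P24 vs P16), edgeR again called 0.0% (0 of 214, with 3, or 1.4%, at an unadjusted p under 0.05; DESeq2 and limma 0). The edgeR, DESeq2 and limma fits of this contrast left out the pairing by heifer. The log2 fold changes were 0.06 ± 0.18 for miR-191, -0.07 ± 0.12 for miR-425-5p and 0.02 ± 0.14 for miR-425-3p, each with an edgeR adjusted p of 0.999. RPMM of the same miRNAs were higher on Day 24 in 6, 4 and 6 of the 10 heifers with both libraries.

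Across the oestrous cycle, the cluster had higher levels on Day 8 than on Day 0 in most heifers, a difference that was not called. In NP8 vs NP0, edgeR called 0.0% of the 214 miRNAs (0, with 19, or 8.88%, at an unadjusted p under 0.05; DESeq2 called 1 and limma 0), and no cluster member. RPMM were higher on Day 8 than on Day 0 in 7 of 8 heifers for miR-191, in 6 of 8 for miR-425-5p and in 7 of 8 for miR-425-3p. The main fits of the cycle contrasts, and those by DESeq2 and limma, left out the pairing by heifer. The log2 fold changes were 0.30 ± 0.21 (SE), 0.16 ± 0.12 and 0.40 ± 0.24, each with an edgeR adjusted p of 0.615. The last of these, a fold of 1.32 for miR-425-3p with a 95% interval of 0.936 to 1.87, was the largest of the 21 log2 fold changes of the 3 members. With the heifer as a block, the edgeR unadjusted p was 0.084 for miR-191, 0.259 for miR-425-5p and 0.0354 for miR-425-3p. The adjusted p of that fit was 0.448, 0.644 and 0.44. Animal 21 was the exception for miR-191, with 56953 RPMM on Day 0 and 33578 on Day 8, and without it the log2 fold change of miR-191 was 0.48 (edgeR adjusted p = 0.238).

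From Day 8 to Day 16 the 3 members did not share a direction after TMM scaling. edgeR called 0.0% (0 of 214, with 5, or 2.34%, at an unadjusted p under 0.05; DESeq2 and limma 0), with log2 fold changes of -0.07 ± 0.16 for miR-191, 0.06 ± 0.11 for miR-425-5p and -0.15 ± 0.22 for miR-425-3p (edgeR adjusted p = 0.919, 0.919 and 0.911). On the RPMM scale all 3 were lower on Day 16, in 5, 6 and 7 of 8 heifers, with ratios of means of 0.809, 0.907 and 0.763, so the sign for miR-425-5p turned with the scaling. Library totals moved the median of all 214 miRNAs by -0.17 in this contrast. Beside this shift, miR-486, an erythrocyte miRNA and the most abundant miRNA in these data, averaged 136055 RPMM in NP8 and 201697 in NP16. Library totals gave log2 fold changes of -0.28 for miR-191, -0.14 for miR-425-5p and -0.37 for miR-425-3p. Library totals without miR-486 gave -0.09, 0.04 and -0.16, and moved the median of all miRNAs by -0.02. Whether miR-486 was the cause of these differences was not tested. In NP16 vs NP0, edgeR called 0.0% (0 of 214, with 12, or 5.61%, at an unadjusted p under 0.05), while DESeq2 called 3 and limma 0, without a cluster member. The log2 fold changes were 0.25 ± 0.18, 0.24 ± 0.12 and 0.27 ± 0.22 (edgeR adjusted p = 0.617, 0.617 and 0.623), and without animal 18 they were 0.05, 0.12 and 0.11. By RPMM the ratios of means were only 1.02, 1.04 and 1.06, and library totals gave -0.0049 for miR-191 while moving the median of all miRNAs by -0.23.

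**Figure D2:**
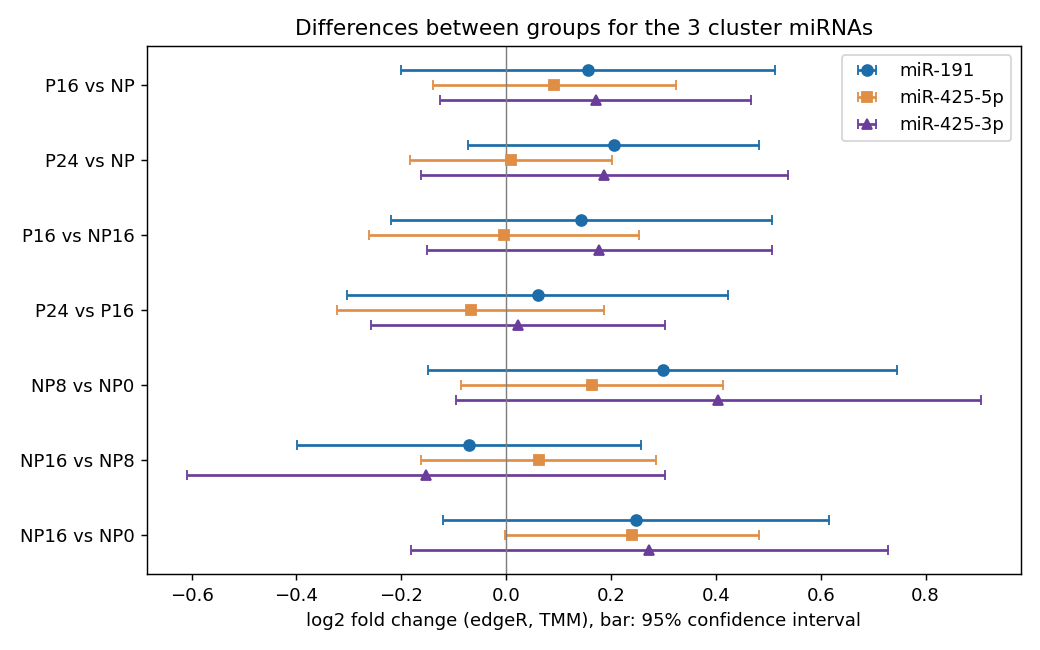
Log2 fold change of miR-191, miR-425-5p and miR-425-3p in the 7 comparisons from the quasi-likelihood test of edgeR after TMM scaling; points are estimates and bars 95% confidence intervals. All 21 intervals include 0, and the widest range is that of miR-425-3p in NP8 vs NP0.

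The arm ratio of miR-425 does not depend on how a library is scaled, and its spread between heifers was wide in every group. Mean reads of the 5p arm per read of the 3p arm were 20.0 ± 6.04 in NP0, 17.3 ± 6.68 in NP8, 19.6 ± 6.79 in NP16, 16.3 ± 4.17 in P16 and 15.7 ± 4.79 in P24 (SD). The lowest, median and highest libraries were 13.5, 18.1 and 27.7 in NP0, 10.8, 14.3 and 28.3 in NP8, 13.3, 17.2 and 31.8 in NP16, 12.0, 14.8 and 25.3 in P16, and 10.6, 13.3 and 24.3 in P24. All ranges overlapped widely. Of 14 exact permutation tests on this ratio and on that of miR-191 to miR-425-5p, the smallest p belonged to the arm ratio in NP16 vs NP8, which was higher on Day 16 in 7 of 8 heifers by 0.20 on the log2 scale (two-sided exact sign-flip permutation test, p = 0.0391, adjusted p = 0.426). None of the 14 passed the adjustment. In the contrasts with NP, the arm ratio stood lower by -0.13 in P16 (exact permutation p = 0.481) and by -0.20 in P24 (exact permutation p = 0.318), again log2 differences. With the left-out P16 library kept, the difference of P16 from NP was -0.0068 and that from NP16 was -0.12 in place of -0.24. The ratio of miR-191 to miR-425-5p averaged 16.5 ± 5.02 in NP0, 18.1 ± 3.70 in NP8, 16.7 ± 2.28 in NP16, 18.1 ± 3.72 in P16 and 19.9 ± 2.51 in P24 (SD). On the log2 scale it stood above NP by 0.19 in P24 (exact permutation p = 0.0608, adjusted p = 0.426) and by 0.04 in P16 (exact permutation p = 0.768, adjusted p = 0.852).

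Several heifers had much the same arm ratio on each of their days. Animal 16 had 26.8, 28.3 and 28.3 reads of miR-425-5p per read of miR-425-3p on Days 0, 8 and 16, whereas animal 35 had 13.5, 10.8 and 14.0 and animal 34 had 14.1, 11.8 and 13.3. Among the pregnant heifers animal 11 had 25.3 on Day 16 and 22.8 on Day 24, whereas animal 12 had 13.6 and 10.6 and animal 32 had 13.1 and 13.3. Others moved: animal 21 went from 17.1 on Day 0 to 25.2 and 31.8, and animal 29 from 21.1 on Day 16 of pregnancy to 12.2 on Day 24. The highest and the lowest ratio of 1 heifer differed by a median of 1.38 times over 3 days in NP and 1.14 times over 2 days in pregnancy. Once day means were removed, 0.659 of the variance of the log2 arm ratio lay between heifers in NP, a larger share than for the levels of 93.9% of the miRNAs tested. In the 10 pregnant heifers with both days the share was 0.523, larger than for 70.6% of miRNAs. Levels carry the scaling of each library and a ratio does not, so these measures are unlike. The ratio of miR-191 to miR-425-5p had shares of 0.195 in NP and 0.251 in pregnancy, each larger than for 38.8% of miRNAs.

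Of the 3 levels, that of the minor arm had the largest share of its variance between heifers. The between-heifer share of the variance of log2 RPMM in NP was 0.628 for miR-425-3p, 0.45 for miR-425-5p and 0.25 for miR-191, beside a median of 0.289 over 214 miRNAs. In pregnancy it was 0.691, 0.57 and 0.507, beside a median of 0.339. These shares are a description over 8 and 10 animals, without a test. Animal 16 held 44.5, 53.2 and 51.8 RPMM of miR-425-3p on its 3 days, and animal 34 held 133, 172 and 157. Animal 10 held 173 and 186 RPMM on Days 16 and 24 of pregnancy, and animal 11 held 89.6 and 83.0. In animal 11 this low minor arm went with the highest miR-191 of both days.

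**Figure D3:**
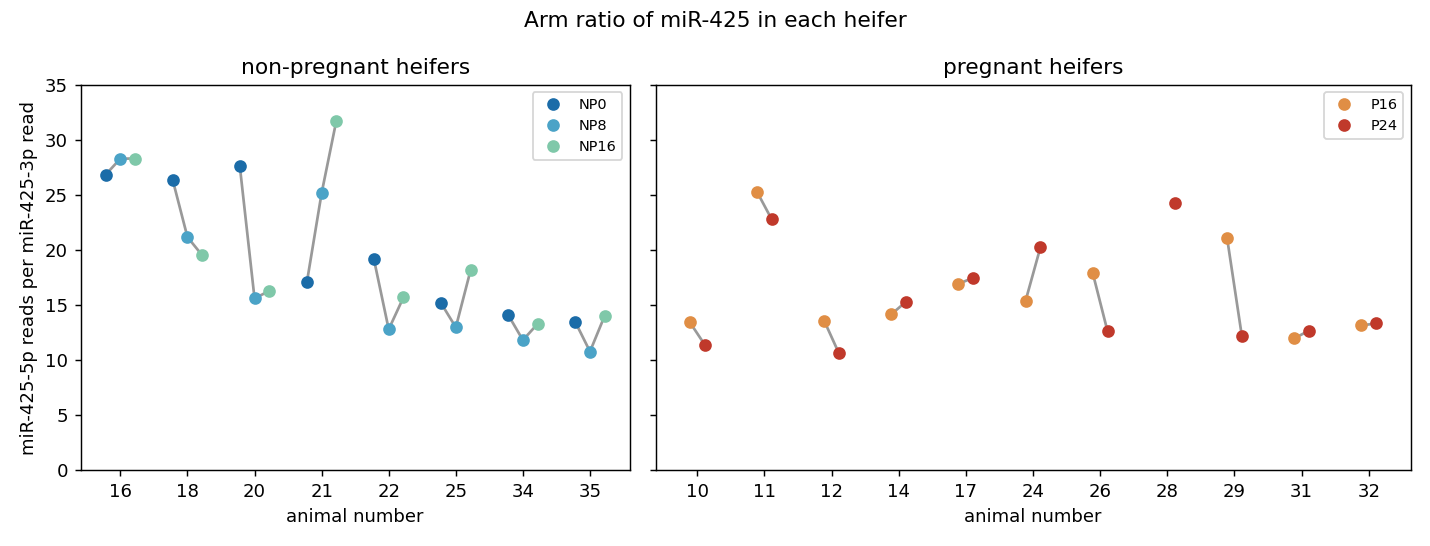
Reads of miR-425-5p per read of miR-425-3p in each heifer, non-pregnant on the left (NP0, NP8, NP16) and pregnant on the right (P16, P24); points are libraries and grey lines join the libraries of 1 animal. Animals 16 and 11 stay above 22 on all their days, while animals 34, 35, 10, 12, 31 and 32 stay below 15.

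Within a day, heifers with more miR-191 also had more miR-425-5p in NP0, NP8 and P24, where the adjusted p was under 0.1, and the relation held without the farthest heifers in NP8 and P24. Whether it differed between groups was not tested. Across the heifers of NP8 the levels on the log2 scale had r = 0.947 and rho = 0.905 (exact permutation p = 0.000595 and 0.00456, adjusted p = 0.00893 and 0.0228 over 30 relations, n = 8), and r was 0.868 without the pair of heifers farthest from the median. In P24, r was 0.946 and rho 0.882 (permutation p = 3e-05 and 0.00049, adjusted p = 0.0009 and 0.0147, n = 11), with r = 0.912 without the farthest pair. In NP0, r was 0.743 and rho 0.833 (exact permutation p = 0.0319 and 0.0154, adjusted p = 0.0819 and 0.0578), and r dropped to 0.336 without the farthest pair, so it rested on those heifers. In NP16, r was 0.536 and rho 0.357 (exact permutation p = 0.176 and 0.389, adjusted p = 0.33 and 0.584), and r turned to -0.44. In P16, where miR-191 fell into separate sets, the 3 heifers with high miR-191 also had the 3 highest levels of miR-425-5p, 2323, 2266 and 2146 RPMM. Among the 7 others, a set picked by miR-191 itself, r was -0.471 and rho -0.607 (exact permutation p = 0.274 and 0.167, adjusted p = 0.411 and 0.358).

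The arms of miR-425 were correlated in the cycling heifers, with r of 0.843 in NP0, 0.836 in NP8 and 0.806 in NP16, and rho of 0.905, 0.905 and 0.69 (exact permutation p = 0.00828, 0.00858 and 0.013 for r, adjusted p = 0.0429, 0.0429 and 0.0433; adjusted p = 0.0228, 0.0228 and 0.174 for rho, n = 8 each). Without the farthest pair these r were 0.762, 0.629 and 0.553. In pregnancy r was 0.445 in P16 (rho = 0.176, permutation p = 0.196 and 0.632, adjusted p = 0.345 and 0.824, n = 10) and 0.16 in P24 (rho = 0.0818, permutation p = 0.642 and 0.818, adjusted p = 0.837 and 0.98, n = 11). Whether the relation differed between cycling and pregnant heifers was not tested. miR-191 and miR-425-3p had r of 0.683, 0.83 and 0.583 in NP0, NP8 and NP16 and 0.0914 in P24 (adjusted permutation p = 0.0819, 0.0433, 0.264 and 0.948), and 0.903 among the 7 P16 heifers (exact permutation p = 0.00198, adjusted p = 0.0198; rho = 0.821, adjusted p = 0.1), which was 0.674 without the farthest pair. That last relation leaves aside the 3 heifers with high miR-191, of which animal 11 had the highest miR-191 of P16 with only 89.6 RPMM of miR-425-3p. The 7 heifers were picked by miR-191 itself after its values had been seen, though the relations had been planned over all 10. The p-values over these 7 are therefore not valid tests, and values over all 10 were not computed. RPMM of all miRNAs share the mapped reads of the library, and the part of this shared divisor in these relations was not tested. miR-486, which takes the largest share of the reads, ran against all 3 members in NP8 (r of -0.827, -0.873 and -0.824, adjusted permutation p = 0.0433, 0.0324 and 0.0576) and had r between -0.782 and 0.351 in the other groups. The lowest of these, for miR-191 among the 7 P16 heifers (adjusted permutation p = 0.0819), turned to 0.576 without the farthest pair.

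**Figure D4:**
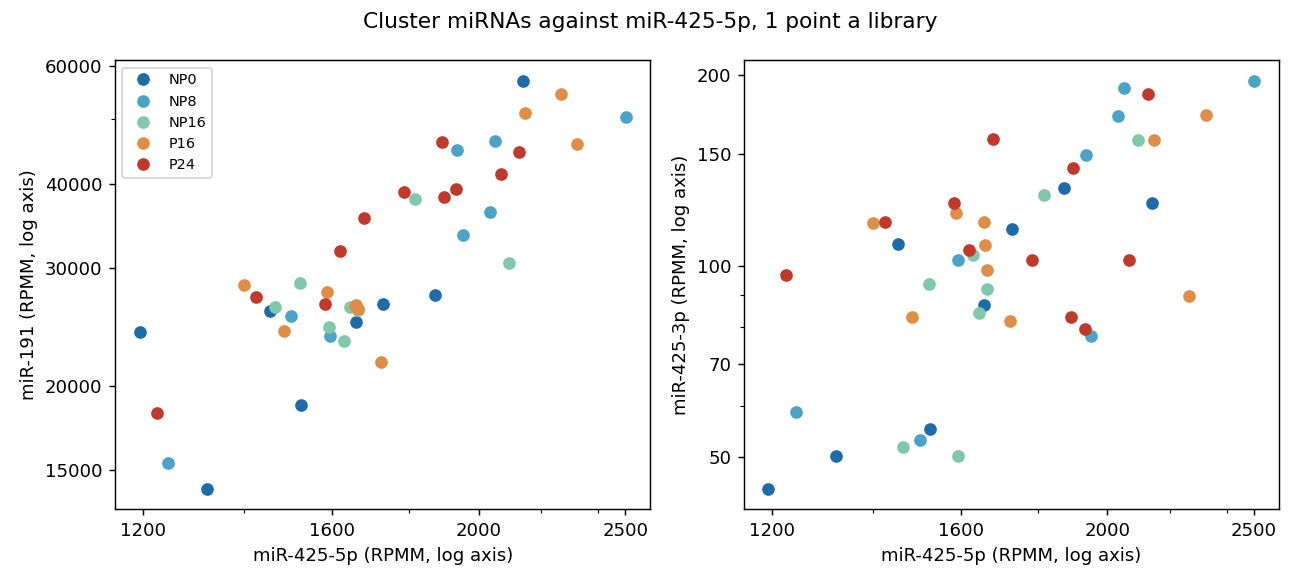
miR-191 (left) and miR-425-3p (right) against miR-425-5p in each library, in RPMM on log axes, coloured by group. Libraries with more miR-425-5p tend to hold more miR-191, with the 3 P16 libraries above 40000 RPMM of miR-191 at the upper right, and miR-425-3p is more scattered, between 44.5 and 195 RPMM.

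Over all 45 libraries, after each group's mean was taken off, the miRNAs whose log2 RPMM was most like miR-191 were miR-421 (rho = 0.905), miR-330 (0.851), miR-425-5p (0.843), miR-151-3p (0.838) and miR-30e-5p (0.833), beside a median rho of 0.237 over the 213 other miRNAs. On TMM-scaled counts miR-421 was again the most alike (0.838), and miR-425-5p ranked 9 (0.675, beside a median of -0.051). For miR-425-5p the nearest were miR-17-5p (0.865), miR-191 (0.843), miR-128 (0.821), miR-326 (0.778) and miR-18a (0.767), beside a median of 0.3. Of these, miR-17-5p and miR-18a come from the miR-17-92 cluster. On TMM-scaled counts they had 0.704, 0.675, 0.745, 0.495 and 0.553, in the same order, beside a median of 0.0121. Its own opposite arm ranked 38 with rho = 0.588, and 70 on TMM-scaled counts with 0.182. For miR-425-3p the nearest were miR-2284z (0.808), miR-2284aa (0.807), miR-221 (0.789), miR-1307 (0.785) and miR-30b-5p (0.784), beside a median of 0.339. On TMM-scaled counts these had 0.597, 0.596, 0.577, 0.45 and 0.58, beside a median of -0.06, and miR-1307 ranked 20. miR-2284z and miR-2284aa belong to a ruminant family of closely similar sequences whose reads may be split between names. Libraries of 1 heifer are not independent and all share the divisor, so these rho values are a description over 45 libraries from 19 heifers.

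miR-191 is known as a platelet miRNA, so its levels were set beside those of other platelet miRNAs. The platelet list held 7 miRNAs: miR-126-3p and miR-126-5p, which endothelium also makes, miR-223, shared with myeloid cells, and miR-24-3p, miR-20a, miR-21-5p and miR-197, which many tissues express. All 7 were tested, and together they made up 2.61 ± 0.70% of miRNA reads in NP0, 2.72 ± 0.65% in NP8, 2.38 ± 0.63% in NP16, 2.77 ± 0.50% in P16 and 2.82 ± 0.39% in P24 (SD), with library ranges that overlapped throughout. Their likeness to miR-191 was uneven. miR-223 had rho = 0.723 (rank 25 of 213), miR-21-5p 0.681, miR-20a 0.639, miR-24-3p 0.583, miR-197 0.421, miR-126-5p 0.336 and miR-126-3p 0.293, the last 2 close to the median of 0.237. On TMM-scaled counts miR-223 had 0.646, miR-197 0.506, miR-24-3p 0.395, miR-20a 0.308, miR-21-5p 0.254, miR-126-5p 0.0573 and miR-126-3p -0.0752. Of the 6 leukocyte miRNAs listed, miR-142-5p (0.714), miR-155 (0.705) and miR-142-3p (0.692) were as near to miR-191 as most of the platelet list. The others were less alike, with miR-146a at 0.344, miR-23a at 0.341 and miR-150 at 0.16. On TMM-scaled counts these 6 had 0.488, 0.503, 0.36, 0.0307, 0.039 and -0.0361, in the same order. Erythrocyte miRNAs had from -0.381 (miR-486) to 0.38 (miR-16a) with miR-191 on log2 RPMM. For miR-425-5p on TMM-scaled counts, they had from 0.0329 (miR-144) to 0.555 (miR-16b), and the platelet list from -0.105 (miR-126-3p) to 0.643 (miR-197). On log2 RPMM these ranges were -0.119 (miR-486) to 0.573 (miR-16a) and 0.16 (miR-126-3p) to 0.714 (miR-20a). Platelet counts were not among the data, so a platelet origin of the plasma reads was not tested.

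edgeR called 0 of the 7 platelet miRNAs in each of the 7 comparisons. In P16 vs NP, 6 of 7 had a positive log2 fold change, with a median of 0.09 beside 0.01 over all 214 miRNAs, of which 52.8% were positive. In P24 vs NP, 3 of 7 were positive with a median of -0.0086 (all miRNAs 0.02, 51.9% positive). In P16 vs NP16 it was also 3 of 7, with a median of -0.02 (all miRNAs 0.02, 50.9% positive), and in P24 vs P16 4 of 7 with a median of 0.01 (all miRNAs 0.01, 55.1% positive). Between cycle days, 5 of 7 were positive in NP8 vs NP0 (median 0.15; all miRNAs 0.02, 55.1% positive), 4 of 7 in NP16 vs NP8 (median 0.04; all miRNAs 0.02, 55.6% positive) and 5 of 7 in NP16 vs NP0 (median 0.25; all miRNAs 0.02, 53.3% positive). The largest of all, 0.45 ± 0.20 (SE) for miR-126-3p in NP16 vs NP0, had an edgeR adjusted p of 0.617. Of the other blood cell lists, 6 of 6 erythrocyte miRNAs stood higher in NP16 vs NP8 (median 0.37) and 6 of 6 in NP16 vs NP0 (median 0.44), while 6 of 6 stood lower in P16 vs NP16 (median -0.35), 6 of 6 in P24 vs NP (median -0.18) and 5 of 6 in P16 vs NP (median -0.06), 0 of them called by edgeR in any of these. In NP8 vs NP0, 3 of 6 erythrocyte miRNAs stood higher (median -0.00575), and in P24 vs P16 1 of 6 (median -0.0918). Leukocyte miRNAs were mixed, with 2 to 4 of 6 positive in each of the 7 comparisons and 0 called. The miRNAs of a list were measured in the same libraries and are not replicates. The NP16 libraries enter both cycle contrasts with NP16, P16 vs NP16 and, as part of NP, both contrasts with NP. The counts of these lists are therefore not separate evidence of a direction. Erythrocyte miRNAs took 25.5 ± 11.7% of miRNA reads in NP8 and 34.5 ± 11.1% in NP16 (SD, n = 8), and 26.5 ± 9.86% in P16 (n = 10). Their part in the RPMM of the cluster was not tested.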

How the data were processed

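The values analysed were the read counts and the RPM values (RPMM in the text) of mature miRNAs that the authors deposited for 46 plasma libraries. Per the labels and the study's methods, RNA was extracted with TRIzol LS, libraries were made with the Illumina TruSeq small-RNA kit and sequenced from a single end, and reads were processed with sRNAtoolbox against the UMD 3.1 genome and mature miRNAs of miRBase, bovine and human, with 1 mismatch allowed. The counts are raw reads per miRNA name, deposited by the authors. The RPM values were made by the authors from those counts by scaling to all mapped reads, miRNA or not. Adapter ligation biases levels between miRNAs, so ratios between miRNAs compare libraries and do not measure molar ratios.

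The filter removed names below 25 RPM in over 75% of libraries in every group. Counts were tested with edgeR 4.0.16 under R 4.3.3 (TMM, glmQLFit, glmQLFTest, FDR limit 0.1), and alternatives used DESeq2 1.42.0 or limma 3.58.1. Ratios were tested by two-sided exact permutation of heifers, or of signs within heifers, and correlations by permutation of pairings (exact up to 8 heifers, otherwise 100000 resamples), in Python 3.11.15 with numpy 2.4.6, pandas 2.3.3 and scipy 1.17.1; plots used matplotlib 3.10.9. Groups, heifers and days came from the labels. Libraries with the same number come from 1 heifer, so the numbers pair the libraries; the main fits had no block, and fits with the heifer as a block were alternatives. Other alternatives were scaling, pseudocount, filter, FDR limit, the left-out library and each heifer left out. The edgeR steps were also run on data simulated for P16 vs NP only, with changes larger than any reported for the members. That run does not cover smaller changes or the contrasts within heifers. The members and lists were chosen with earlier results of these data known. The text names the 3 members, the platelet list, members of the leukocyte and erythrocyte lists, and the 5 miRNAs most like each member. Sequencing batches are not given in the labels. Sequences of the miRNAs were not used here.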

Additional observations from a re-analysis of the deposited data

Results flagged for a closer look

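In NP0, the miR-191 level of animal 21 was far from those of the other heifers: 56953 RPMM against 27302 in the next library, a gap of 0.691 of the whole range of 8 libraries. Of 25 groups of values examined for such a gap, 1 had it, and chance alone gives about 1 in 20.

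The P16 library of animal 28 was left out by the study and entered comparisons here only as an alternative. It had 39.9 reads of miR-425-5p per read of miR-425-3p, above 31.8, the highest of any non-pregnant library. It held 9898 RPMM of miR-191, 743 of miR-425-5p and 18.6 of miR-425-3p, all below the lowest of the 45 libraries used, and 33.1% of its mapped reads were miRNA. The ratio rests on 121 reads of miR-425-3p, and on Day 24 the same heifer had a ratio of 24.3.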

How the results depend on the processing

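No alternative turned a cluster miRNA into a call. Of 231 values of the 3 members under other scalings, tools, filters, FDR limit, the left-out library and the block, 216 kept their direction and 15 reversed, with a smallest adjusted p of 0.44. These are not all separate checks of direction. The values at the other FDR limit are those of the main fit and could not reverse. The exact permutation test repeats the limma values with a pseudocount of 1 and also leaves out the pairing by heifer. Of 270 values without 1 heifer, 255 kept their direction and 15 reversed, with a smallest adjusted p of 0.238. The cause of the reversals was not tested.

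miR-425-5p reversed in P24 vs NP with library totals without miR-486 (-0.0035) and with no filter (-0.0129). In P16 vs NP16 it reversed with library totals (0.1601), library totals without miR-486 (0.0114), limma with a pseudocount of 1 (0.0807) or 0.1 (0.0808), the exact permutation test (0.0807) and the left-out library (0.0289). In NP16 vs NP8 it reversed with library totals (-0.1356), limma (-0.1202 with either pseudocount) and the exact permutation test (-0.1202). miR-425-3p in P24 vs P16 reversed with no filter (-0.0067) and a filter at 100 RPM (-0.0021), and miR-191 in NP16 vs NP0 with library totals (-0.0049). The log2 ratio of miR-191 to miR-425-5p in P16 vs NP, 0.04, was -0.0011 with the left-out library.

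Without 1 heifer, log2 fold changes of miR-425-5p ranged from -0.0267 to 0.0429 in P24 vs NP, -0.0719 to 0.0626 in P16 vs NP16 and -0.0752 to 0.1371 in NP16 vs NP8. Those of miR-191 ranged from -2.4e-05 to 0.1997 in P16 vs NP16 and -0.257 to 0.0248 in NP16 vs NP8, and those of miR-425-3p from -0.0385 to 0.0478 in P24 vs P16.

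The number of miRNAs called in P16 vs NP, 2, was 3 with no filter, 1 with a filter at 100 RPM and 0 with the left-out library or the exact permutation test. Counts of 0 became 1 in P16 vs NP16 and in NP8 vs NP0 with DESeq2, and in NP16 vs NP0 1 with library totals or no filter and 3 with DESeq2. Without 1 heifer the counts ran from 0 to 2 in P24 vs NP (2 without P24 animal 24) and 0 to 1 in P16 vs NP16 (1 without NP16 animal 16 or P16 animal 29).

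With the heifer as a replicate block, log2 fold changes in NP8 vs NP0 were 0.33 for miR-191, 0.17 for miR-425-5p and 0.40 for miR-425-3p (edgeR adjusted p = 0.448, 0.644 and 0.44), and the pairing changed no call in the 4 contrasts within heifers. The left-out P16 library could not enter NP16 vs NP8 or NP16 vs NP0, which hold no P16 library. Depth limits miR-425-3p most, at 109 reads in the shallowest library.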
